A study of Mus musculus with 2 samples.

Results

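Granins and the enzymes that cut prohormones were followed in a mouse glioblastoma stem cell line carrying an shRNA against Gli2 and in that line with a non-target shRNA as control. The group holds 10 genes of 23784 named on the array: the granins Scg2, Scg3, Scg5, Chga, Chgb, Vgf and Pcsk1n, and the processing enzymes Pcsk1, Pcsk2 and Cpe. Members were selected by name, as all probes whose RefSeq accession belongs to 1 of these genes, which gave 11 probes of 56595. The set was drawn up with earlier results of these arrays known, among them a high difference of Scg2, so every value below is a description. The tumour cells were derived from mouse glioblastomas induced with a Sleeping Beauty (SB) transposon and are kept as neurospheres without serum, with EGF and bFGF added. Both groups carried a stably integrated lentivirus and came from this single line; the labels give neither the strain nor whether the transduced cells were a clone. Each group was measured on 1 Agilent array, so no difference has a replicate check and no test was possible.

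Granins are acidic proteins of dense core vesicles, the organelles in which neurons and endocrine cells store peptides until a stimulus releases them. They help to form the granule and concentrate its cargo, and several are themselves cut into active peptides. Inside the granule the prohormone convertases encoded by Pcsk1 and Pcsk2 cut precursors after pairs of basic residues, and carboxypeptidase E, from Cpe, trims the basic residues left behind. In the brain these genes are used mainly by neurons, and many of them are held down by the repressor REST in cells that are not neurons and respond to cyclic AMP through CREB.

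The cyclic AMP response element (CRE) is a known feature of this gene class, and the promoter letters shown are those of the 3 members with the full CRE and of the other 2 granins with its core in this stretch. Sequences are the 120 bases before the RefSeq start site on GRCm38.p6, read in the direction of the gene, with each CRE core (TGACG or its reverse complement CGTCA) in capitals. They come from chr1:79440027-79440146 (minus strand), chr2:132781522-132781641 (plus strand), chr13:75089737-75089856 (plus strand), chr9:75684057-75684176 (minus strand) and chr12:102554821-102554940 (plus strand).
Scg2: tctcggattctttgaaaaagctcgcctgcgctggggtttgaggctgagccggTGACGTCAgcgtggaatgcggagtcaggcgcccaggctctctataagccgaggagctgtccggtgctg
Chgb: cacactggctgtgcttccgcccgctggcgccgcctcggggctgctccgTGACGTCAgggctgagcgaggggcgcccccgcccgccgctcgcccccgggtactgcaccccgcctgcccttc
Pcsk1: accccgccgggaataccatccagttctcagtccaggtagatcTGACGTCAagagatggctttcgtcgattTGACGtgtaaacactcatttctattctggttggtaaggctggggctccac
Scg3: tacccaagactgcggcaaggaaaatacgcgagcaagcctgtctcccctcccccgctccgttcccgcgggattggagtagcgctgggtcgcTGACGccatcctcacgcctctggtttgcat
Chga: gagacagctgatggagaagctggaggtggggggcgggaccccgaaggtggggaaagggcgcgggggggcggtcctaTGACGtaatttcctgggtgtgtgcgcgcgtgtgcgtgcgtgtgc

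The full palindrome TGACGTCA stood in Scg2, Chgb and Pcsk1, beginning 68, 72 and 78 bases before the start site. Of the 8 members in the promoter table, these 3 held it in the window from 250 bases before to 50 bases after the start, against 1.79% of all 32851 windows. The shorter core TGACG, which the palindrome contains on both strands and which was also counted alone, was in 7 of the 8 windows and in 20.8% of all windows. Scg3 held it 30 bases and Chga 44 bases before the start. Of the members not shown, Pcsk2 held it 34 bases before the start, and Scg5 and Pcsk1n did not hold it in the 120 bases before the start. The GLI letters GACCACCCA, searched on both strands, were in none of the 8 windows and in 0.253% of all windows. Of the letters of the REST-binding RE1 element, also searched on both strands, the first part TTCAGCACC was in the Scg2 window, as its reverse complement next to the start site, and in 0.371% of all windows. A match of letters is a description of the sequence only. Vgf and Cpe had no entry in the table.

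Gli2, the transcription factor targeted by the shRNA, had a processed signal of 57.9 on the Gli2 shRNA array, against 98.1 on the control array. Differences are Gli2 shRNA minus control on the log2 scale, after each array was scaled to the 75th percentile of its probes, which was a signal of 399 on the Gli2 shRNA array and 329 on the control array. On this scale Gli2 differed by -1.04 ± 0.22, where the error is the scanner software's own error of both spots and covers neither the culture nor the labelling. After normexp background correction, which pulls dim signals together, Gli2 differed by -0.64, and with median scaling by -0.90 and cyclic loess by -0.98, short of 2-fold under each of these. A probe counts as measured where the software flagged its signal as well above background, and the lowest such signal was 15.2 on the Gli2 shRNA array and 12.8 on the control array. Of the named genes, 14563 were measured on both arrays by their brightest probe. Their differences had an SD of 0.42. As a check of the labelled cell type, all 12 neural stem cell markers on the list were measured on at least 1 array. Of the 23784 named genes 15970 passed the same rule, so this check is weak. Prom1 passed on the Gli2 shRNA array only, at 20.2, and Nr2e1 on the control array only, at 27.2. The scaled difference of Sox2 was -0.06 ± 0.20. Of the 12 markers, 4 lay above 0 and 8 below, and 2 were at least 2-fold lower. These were Itga6, a laminin receptor (-1.02 ± 0.20), and the nuclear receptor Nr2e1 (-1.10 ± 0.44). The Nr2e1 value is a plain difference, with 15.4 on the Gli2 shRNA array, and its other probe was not well above background on either array. Across all measured genes, 2.69% were at least 2-fold lower.

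Most granins and processing genes were higher in Gli2 shRNA cells, and 3 granins exceeded 2-fold. Scg2, Scg3 and Vgf were past 2-fold, Chgb, Pcsk2, Cpe and Pcsk1n were higher by less, and Chga and Scg5 lay close to 0. Of the 9 members measured, 8 lay above 0 and 3 were at least 2-fold higher, while none was at least 2-fold lower. Across the 15970 named genes measured on at least 1 array, 48.9% lay above 0, 2.6% were at least 2-fold higher and 2.69% at least 2-fold lower, where a gene measured on 1 array enters at its lower bound. Higher genes made up 49.2% of all calls at 2-fold, 64.8% with median scaling, 59.6% with quantile normalization and 59.8% with cyclic loess, and the count of 3 members higher was the same under these scalings. The median difference was 0.54 over the 9 members and -0.01 over all measured genes. Counted by probe, 3 of the 10 member probes measured were at least 2-fold higher, against 2.18% of all named probes, and none was at least 2-fold lower, against 2.54%. At 1.5-fold, Chgb joined Scg2, Scg3 and Vgf, so that 4 members were higher, against 6.97% of all measured genes. In a bulk culture, more cells that use these genes and more of their RNA per cell cannot be told apart.

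**Figure D1:**
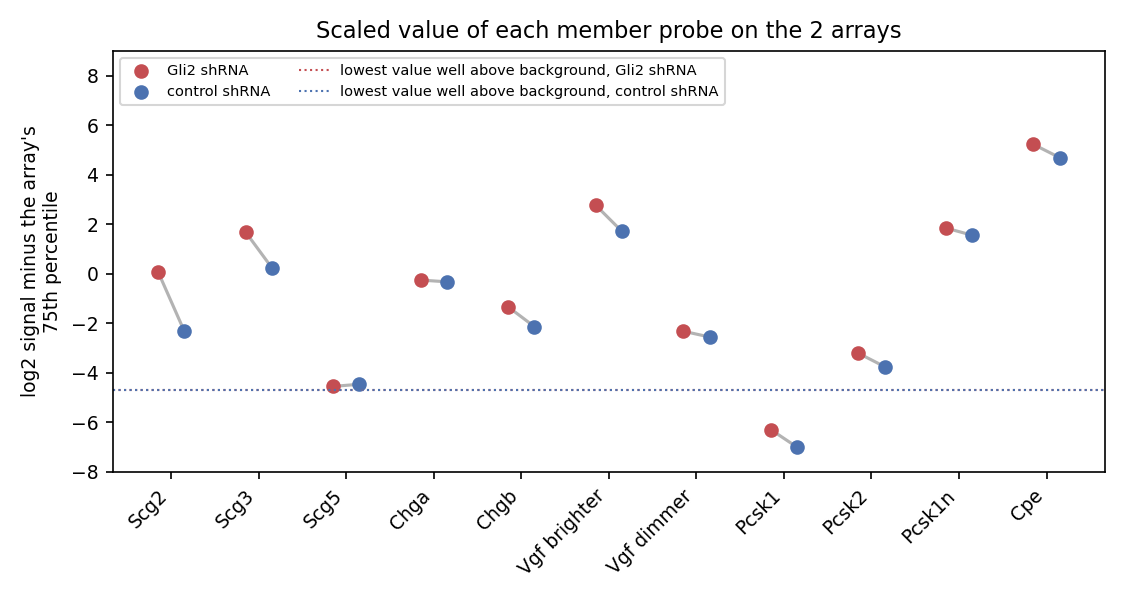
Scaled values (log2 processed signal minus the 75th percentile of the same array) of the 11 member probes on the Gli2 shRNA array and the control array, joined by a line for each probe. Dotted lines, which nearly coincide, give the lowest value well above background on each array. Scg2, Scg3 and the brighter Vgf probe show the steepest lines, and Pcsk1 lies below background on both arrays; heights of different probes are not comparable.

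Scg2 encodes secretogranin II, a granin cut into the peptide secretoneurin. Its signal was 422 on the Gli2 shRNA array, against 65.9 on the control array. The scaled difference was 2.40 ± 0.21, or 5.28-fold, and it ranked 12 from the top of the 14563 genes measured on both arrays. The size of this difference depended on the background correction, since with normexp it was 1.64. Both signals were well above background.

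Scg3 encodes secretogranin III, which binds cholesterol-rich granule membrane and recruits chromogranin A to it. The signal was 1278 on the Gli2 shRNA array, against 389 on the control array. This gave a difference of 1.44 ± 0.20, or 2.71-fold, at rank 75 of 14563. Both arrays read this gene far above background. Among the alternative ways of processing, the Scg3 difference ran from 1.34 (normexp) to 1.58 (median scaling) and stayed past 2-fold. The filter settings and the mean of probes could not move it, since Scg3 has 1 probe, measured on both arrays. The authors' table, a constant per array away from the processed intensity, gave 1.44.

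Vgf encodes a neurotrophin-inducible precursor of several secreted peptides and is grouped with the granins. Its brighter probe gave 2707 on the Gli2 shRNA array, against 1073 on the control array, a difference of 1.06 ± 0.20, or 2.08-fold. The dimmer probe of the same transcript gave 79.5 on the Gli2 shRNA array, against 55.9 on the control array, a difference of 0.23 ± 0.23. Both probes were measured on both arrays, and they disagree on the size of the change. With the mean of both probes in place of the brighter one, Vgf differed by 0.65 and fell short of 2-fold.

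Chgb encodes chromogranin B, a major soluble granin of neurons and endocrine cells. Its probe was printed 10 times on each array, which makes it the member with a spread measured between spots. On the Gli2 shRNA array the 9 spots used had signals from 147 to 166 with a median of 160.1, and 1 further spot of 179, marked as an outlier by the software, was left out. On the control array the 10 spots ran from 64.7 to 88.5 with a median of 74.1. The ranges of the spots did not overlap, also with the spot that was left out. On the log2 scale the SD between spots was 0.061 on the Gli2 shRNA array and 0.15 on the control array. The scaled difference was 0.80, or 1.74-fold, with a standard error of 0.051 between spots and a software error of 0.22. The spots share 1 labelled RNA per group, so this error says nothing of the cultures. With normexp the difference was 0.43.

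**Figure D2:**
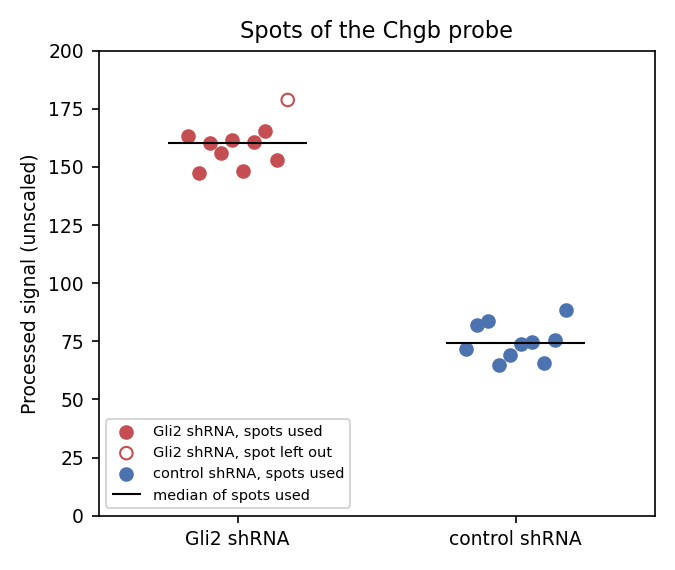
Unscaled processed signal of each spot of the Chgb probe on the Gli2 shRNA array (left) and the control array (right); horizontal lines are medians of the spots used and the open circle is the spot left out. Spots used lie from 147 to 166 on the Gli2 shRNA array and from 64.7 to 88.5 on the control array.

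The remaining granins differed little. Chga, the gene of chromogranin A, the founding granin and a serum marker of neuroendocrine tumours, gave 333 on the Gli2 shRNA array, against 262 on the control array, a difference of 0.07 ± 0.20. Scg5 encodes 7B2, the chaperone that the Pcsk2 enzyme needs to mature. It gave 17.0 on the Gli2 shRNA array, against 14.9 on the control array, both at the edge of background, and its difference of -0.09 ± 0.45 had no settled direction, since it lay above 0 in 3 of the 8 alternatives. Pcsk1n encodes proSAAS, a granin-like inhibitor of the Pcsk1 enzyme. It gave 1429 on the Gli2 shRNA array, against 964 on the control array, a difference of 0.29 ± 0.20.

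Of the 3 processing enzymes, Cpe and Pcsk2 were higher by less than 2-fold and Pcsk1 was not measured. Cpe gave 14847 on the Gli2 shRNA array, against 8470 on the control array, a difference of 0.53 ± 0.20, or 1.45-fold, and ran from 0.53 to 0.67 among the alternatives. Pcsk2 gave 43.0 on the Gli2 shRNA array, against 24.4 on the control array, a difference of 0.54 ± 0.30, which was 0.15 with normexp. Pcsk1 read 5.07 on the Gli2 shRNA array and 2.56 on the control array, and neither was well above background, so no difference is given.

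**Figure D3:**
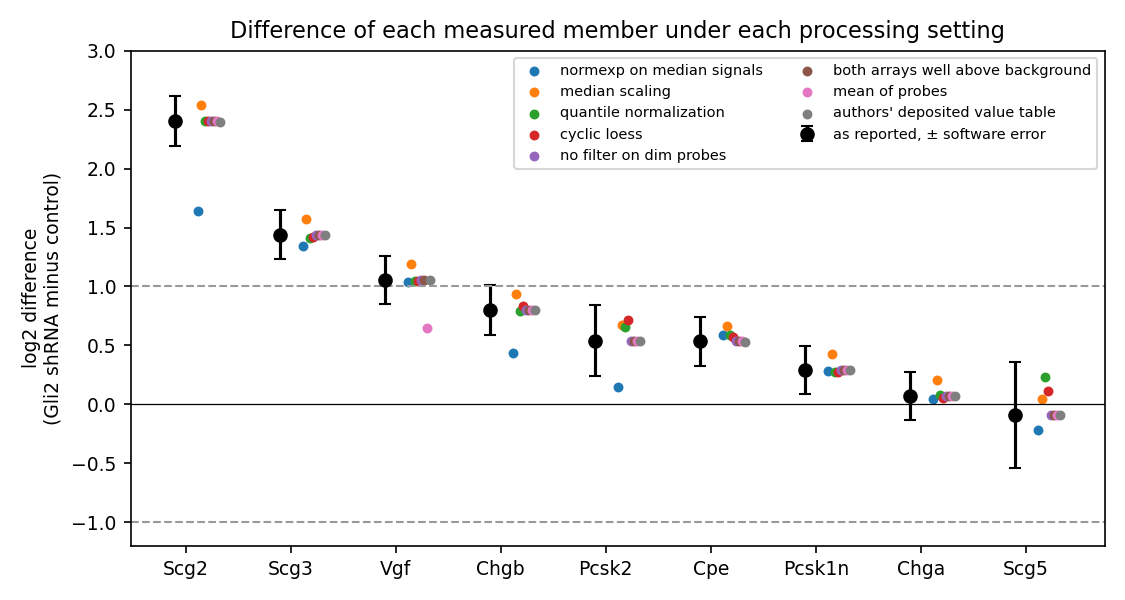
Scaled log2 difference (Gli2 shRNA minus control) of the 9 measured members, ordered by size. Black points are the values reported with the software error, coloured points are the 8 alternative ways of processing, and dashed lines mark 2-fold. Scg2 and Scg3 lie above the upper dashed line at every setting, Vgf falls under it with the mean of its probes, and Scg5 spans 0. The filter settings could not move any of these members, and the mean of probes could move only Vgf.

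Other enzymes that cut or modify peptides, listed together with the protease inhibitors Serpina3n and Serpini1, were within 2-fold. Across all measured genes, 48.9% lay above 0, 2.6% were at least 2-fold higher and 2.69% at least 2-fold lower. Of the 30 listed genes, 23 were measured, none was at least 2-fold higher or lower, and 16 lay above 0, with a median of 0.18. These counts include Serpini1 (0.53 ± 0.21, and -0.53 on its other probe), and Serpina3n was not measured. The highest differences were those of Ctsb, the lysosomal protease cathepsin B (0.84 ± 0.20), Qpct, the glutaminyl cyclase that caps peptides with pyroglutamate (0.66 ± 0.21), and Cpd, a carboxypeptidase of the trans-Golgi related to Cpe (0.62 ± 0.20, and 0.67 on its other probe). Pcsk5, a convertase of the constitutive pathway, differed by -0.72 ± 0.21, and Prepl, a hydrolase related to prolyl oligopeptidase, by -0.37 ± 0.20. Cpm, a membrane carboxypeptidase, differed by -0.17 ± 0.21 on its brightest probe. Its other probe was measured on the Gli2 shRNA array only and was at least 12.7-fold higher there, so the Cpm probes disagree.

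Genes that build dense core vesicles or release them were mostly within 2-fold, with 3 exceptions that were higher and 1 that was lower. Of 51 genes, 42 were measured, and 29 lay above 0 and 13 below, with a median of 0.15. Across all measured genes, 2.6% were at least 2-fold higher and 2.69% at least 2-fold lower. Ap3b2, the neuronal subunit of the AP-3 vesicle adaptor, gave 620 on the Gli2 shRNA array, against 92.6 on the control array (2.47 ± 0.21). Cplx1, complexin 1, a regulator of SNARE-driven fusion, gave 162 on the Gli2 shRNA array, against 46.5 on the control array, or 2.88-fold. Ptprn, the granule membrane protein IA-2, was measured on the Gli2 shRNA array only, at 34.3 against 13.1, or 2.16-fold higher (1.11 ± 0.41). Here 13.1 lay above the lowest control signal well above background, so the bound is the plain difference and not a minimum. Its other probe was not well above background on either array. Rab27b, a Rab GTPase of secretory granules, was measured on the control array only, at 4.95 on the Gli2 shRNA array against 27.0, and was at least 2.16-fold lower. Below 0 but within 2-fold were Rab3b, a further granule Rab (-0.60 ± 0.31), and Slc18a2, a vesicular monoamine transporter (-0.59 ± 0.27). With normexp Ap3b2 (1.88) was past 2-fold and Cplx1 (0.82) was not, and the bounds of Ptprn (0.04) and Rab27b (-0.70) did not reach 2-fold. The Rab27b bound also did not reach 2-fold with median scaling (-0.98), quantile normalization (-0.88) and cyclic loess (-0.92). A bound short of 2-fold leaves the size of the difference unknown. Without the filter on dim probes Rab27b differed by -2.73.

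The peptide precursors that such vesicles carry showed no common direction. Of 40 precursor genes 20 were measured, 10 above 0 and 10 below, with a median of 0.02. At least 2-fold higher were 2 and lower 3, against 2.6% and 2.69% of all measured genes. Sst, the somatostatin gene, stood out on the higher side with 1301 on the Gli2 shRNA array, against 173 on the control array (2.63 ± 0.21). Nppc, the gene of C-type natriuretic peptide, was measured on the Gli2 shRNA array only and was at least 2.32-fold higher. The next highest measured on both arrays, Nmb (neuromedin B, 0.27 ± 0.20) and Pomc (pro-opiomelanocortin, 0.23 ± 0.21), were within 2-fold. On the lower side Calcb, a calcitonin gene-related peptide gene, was measured on the control array only and was at least 7.54-fold lower. The insulin gene Ins2 (-1.14 ± 0.24) and Cartpt, the precursor of the CART peptides (-1.03 ± 0.34), were lower at dim signals, with 44.3 and 19.5 on the Gli2 shRNA array against 80.8 and 32.9 on the control array. With normexp Sst (2.31) and the bound of Calcb (-1.42) were past 2-fold, and Ins2 (-0.59) and Cartpt (-0.39) were not. The normexp bound of Nppc (0.35) did not reach 2-fold, which leaves the size of its difference unknown. Without the filter on dim probes Nppc differed by 2.85. Cartpt was also short of 2-fold with median scaling (-0.89), quantile normalization (-0.86) and cyclic loess (-0.81).

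Regulators described for granin and neuroendocrine genes were mostly within 2-fold. All 26 were measured on both arrays, 10 lay above 0 and 16 below, and the median was -0.09. Among all measured genes, 48.9% lay above 0 and 2.69% were at least 2-fold lower. Rest, the repressor of neuronal genes, gave 584 on the Gli2 shRNA array, against 646 on the control array (-0.42 ± 0.20). Among the factors that bind CRE sites, Creb1 differed by -0.66 ± 0.20 on its brightest probe and from -0.79 to -0.04 on its other 3 probes. Atf2 was lower at -1.24 ± 0.20, with -0.55 on a second probe and another, measured on the control array only, at -1.17, and with the mean of its probes it was at -0.99. On the higher side were the CREB coactivator gene Crtc1 (0.42 ± 0.20), Fos (0.41 ± 0.20) and the neuroendocrine factor Neurod1 (0.39 ± 0.22).

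**Figure D4:**
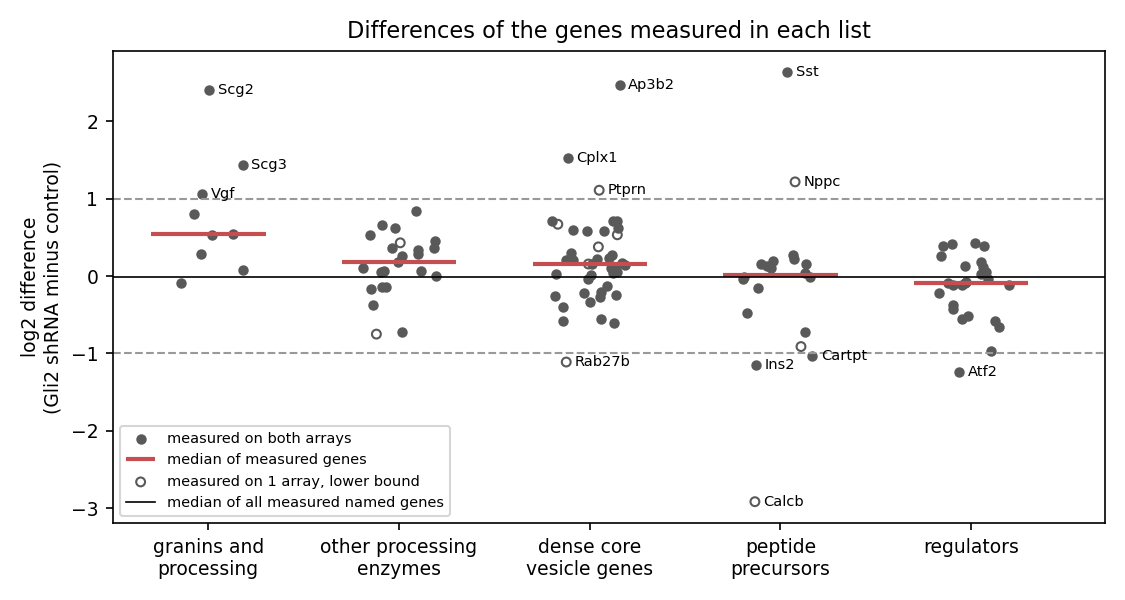
Scaled log2 difference (Gli2 shRNA minus control) of every measured gene in the member group and in the 4 lists around it, each gene by its brightest probe. Filled points were measured on both arrays, open points are the bounds used for genes measured on 1 array, red lines are list medians and dashed lines mark 2-fold. The member median is 0.54, against 0.18, 0.15, 0.02 and -0.09 in the other lists from left to right.

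Markers of the cell types in which granins are common lay on both sides of 0. Among all measured genes, 48.9% lay above 0, 2.6% were at least 2-fold higher and 2.69% at least 2-fold lower. Of 19 neuron markers 15 were measured, 10 lay above 0, 5 lay below, and Eno2, neuronal enolase, was the marker past 2-fold (2.66-fold higher). Elavl3 (0.83), Syn1 (0.82) and Tubb3 (0.74) were higher by less. The Dcx probes disagreed, at -0.93 for the brighter and 2.75 for the dimmer. Map2 differed by -0.49, and by -0.53, -0.94 and -1.10 on its other probes, the last measured on the control array only. Elavl4 differed by -0.12, and by -0.38 and -2.07 on its other probes. Other measured probes of Elavl3, Gad1, Rbfox3, Nefl and Nefm lay above 0, from 0.06 (Nefm) to 0.82 (Elavl3). The 4 neuron markers not well above background on either array were Stmn2, Slc17a6, Slc17a7 and Gad2. The summed signal of the neuron list, in units of the 75th percentile of the array, was 65.5 on the Gli2 shRNA array and 79.1 on the control array. Map2 made up most of it, and without Map2 the sum was 25.03 on the Gli2 shRNA array and 22.4 on the control array. Of 13 neuroendocrine markers, which include the member Chga, 7 were measured and Ins2 was the one past 2-fold, with Dbh, Slc18a1, Calca, Gh, Prl and Gcg below background on both arrays, and the summed level was 5.29 on the Gli2 shRNA array and 5.13 on the control array, or 4.45 on the Gli2 shRNA array and 4.33 on the control array without Chga. By their brightest probes, all 8 measured astrocyte markers lay below 0. Their summed level was 27.6 on the Gli2 shRNA array and 35.4 on the control array, mostly from Slc1a3 and Glul. Aqp4 (-0.12 ± 0.21), Slc1a2 (-0.17 ± 0.21) and Slc1a3 (-0.19 ± 0.20) lay within their error. Each Gfap probe was measured on 1 array, with bounds of -0.64 and 0.24. Dimmer Aqp4 probes gave -0.96 ± 0.26 and 0.33 ± 0.40, and those of Sox9 and Glul lay below 0. Of 8 measured oligodendrocyte lineage markers, 6 lay below 0. The summed level of that list, mostly from Olig1 and Olig2, was 20.0 on the Gli2 shRNA array and 27.0 on the control array. All 6 measured microglia markers and both measured endothelial markers lay below 0 by their brightest probes, several within their error. These were Cd68 (-0.07 ± 0.20), Csf1r (-0.13 ± 0.20), Itgam (-0.07 ± 0.20) and the endothelial Pecam1 (-0.04 ± 0.26). Aif1, P2ry12 and Tmem119 were measured on the control array only and enter as bounds. Dimmer probes of Itgam (0.37 ± 0.26) and Csf1r (0.02 ± 0.20) lay above 0, and that of Cd68 (-0.38 ± 0.22) below. The part of any of these cell types in the granin differences was not tested.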

How the data were processed

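RNA of 1 Gli2 shRNA and 1 control shRNA culture was labelled with Cy3 for 1-colour Agilent arrays, per the labels' protocols. The deposited scanner files hold each spot's intensity, processed by the authors with Agilent Feature Extraction 12.1.0.3, per the file headers. Both arrays lay on 1 slide and in 1 scan. The authors' deposited value table holds log2 values equal to the processed intensity minus 1 constant per array (8.64 for Gli2 shRNA, 8.36 for control; column medians -3.69 and -3.55); who centred it is not given in the sources used here.

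Control spots and spots marked as outliers (120 on the Gli2 shRNA array, 126 on the control array) were left out, no spot was saturated, and spots of a probe were averaged as log2 values. Each array was scaled to its 75th percentile. Probes were named through RefSeq accessions in the GRCm38.p6 gene table (34560 of 56595 matched 1 gene), and the brightest probe stands for a gene. Where 1 array measured a probe, the bound takes as dim side the probe's own value or, if higher, that array's lowest signal well above background. Where the probe's own value is taken, the bound equals the plain difference and is not a strict minimum. Genes were counted at 2-fold, with no test, since the number of arrays limits the precision. Software errors of both spots were combined into the error of a difference.

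Every member probe is named, and from each of 4 lists (peptide-processing enzymes and inhibitors, vesicle genes, peptide precursors, regulators) the genes past 2-fold, plus up to 3 in each direction measured on both arrays where fewer passed, and Rest. Some genes this rule names are not reported here. Members and lists were chosen with earlier results of these data known. Promoter sequences are RefSeq's. Alternatives covered background correction, scaling, the filter on dim probes, the choice of probe, the authors' table and a 1.5-fold rule. The counting step was tested on simulated data. Limma 3.58.1 in R 4.3.3 and Python 3.11.15 were used.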

Additional observations from a re-analysis of the deposited data

How the results depend on the processing

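The count of members at least 2-fold higher was 3 as reported, 3 under 7 alternatives and 4 with the 1.5-fold rule. The mean of probes gave 2, without Vgf. The settings of the filter on dim probes could not change the measured members, which were all measured on both arrays. No alternative put a member at least 2-fold lower, and the member median ran from 0.43 (normexp) to 0.71 (cyclic loess). Median scaling put the median of all genes at 0.13, and the member median at 0.68. Normexp was run on median signals, a choice made after seeing the data, and gave -0.64 for Gli2. Of the 147 genes of the 4 lists, 111 were measured as reported. List genes at least 2-fold apart were 2 higher and 2 lower with normexp, against 5 and 5 as reported. Over all measured genes, 89 were higher and 126 lower with normexp, against 416 and 429 as reported. Lower list genes numbered 3 with median scaling, with quantile normalization and with cyclic loess. Over all measured genes, 301, 337 and 333 were lower under these scalings, in this order. List genes were 8 higher and 8 lower without the filter on dim probes, 3 and 3 when both arrays had to be well above background, and 15 and 13 with the 1.5-fold rule. Over all genes, the counts under these settings, in this order, were 769 and 2075, 268 and 260, and 1113 and 1418. The size of differences at dim signals (Scg5, Pcsk2 and most peptide precursors) is limited by background. With normexp Scg2 went from 2.40 to 1.64, Chgb from 0.80 to 0.43 and Pcsk2 from 0.54 to 0.15. On the control array these probes read 65.9, 74.6 and 24.4, in this order, below that array's 75th percentile of 329. The other measured members, Scg5 among them, moved by less than their software error. No paired analysis was possible because each group holds 1 array.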

Other observations

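Promoter letters were also set beside the differences of all other genes, with the members left out. Of 409 measured genes with TGACGTCA in a promoter window, 11 (2.69%) were at least 2-fold higher and 4 (0.978%) at least 2-fold lower, with a median of -0.01. Of 12238 measured genes without it, 299 (2.44%) were higher and 323 (2.64%) lower, with a median of -0.01. This comparison was chosen after the member values were seen, and the difference between these shares was not tested.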
